A study of Mus musculus with 12 samples.

Results

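The transcriptomes of germinal vesicle (GV)-stage mouse oocytes that carried a floxed Dpagt1 allele were compared with those of oocytes that did not. The comparison was defined by genotype alone: the 6 libraries labelled Dpagt1F/F were set against the other 6, and it took in all 12 libraries of the series. Of 24255 genes in the table, the 11233 with at least 1 FPKM in at least 1 library were tested. The floxed side held 3 libraries of GcKO (Dpagt1F/F Gdf9CRE/+), in which Gdf9 sequences drive the Cre recombinase in oocytes from the primordial follicle stage, and 3 of AmcKO (Dpagt1F/F Amhr2CRE/+), in which Cre is expressed from the Amhr2 locus and the labels call the knockout granulosa cell-specific. The other side held 3 libraries of MUT, whose D166G missense change in DPAGT1 arose by chemical mutagenesis and is present in every cell of the body, and 3 of WT. All groups were labelled as C57BL/6, 3 weeks old and primed with 5 IU of PMSG, and each library was made with Smart-seq2 from 20 oocytes taken 46 h later.

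DPAGT1 catalyses the first step in building the dolichol-linked sugar chain that the endoplasmic reticulum transfers to new proteins as an N-glycan. A floxed allele carries loxP sites round part of a gene, which stays intact until Cre recombinase removes the stretch between them. Such an allele is made in embryonic stem cells and then bred into a strain, and a block of chromosome on either side of it travels with it through the crosses. The GV oocyte is arrested in prophase of meiosis and holds a large store of maternal transcripts. In pooled oocytes, a transcript held by fewer of the cells and one held at a lower level in each cannot be told apart.

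Every floxed library also carried a Cre allele, and no library had the floxed allele without Cre or Cre without the floxed allele. The floxed allele, the chromosome that came with it and the presence of Cre cannot be told apart in these libraries. The labels do not say whether replicates came from separate females, so the p-values measure the spread between these libraries. Dpagt1 itself (chromosome 9, 44326019 to 44333900, forward strand, GRCm38) was too low to check the labels. Its FPKM was 0 in all WT and AmcKO libraries, 0, 0.366 and 0 in GcKO and 0.878, 0.408 and 0.985 in MUT, and the difference between floxed and other libraries did not pass (two-sided exact permutation test, p = 0.182, 6 against 6).

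FPKM, the deposited unit, counts sequenced fragments per kilobase of transcript, scaled for the depth of the library. The median ratio of each library to the geometric mean of the 12, over genes found in all, was 1.01 to 1.03. By that measure the deposited values were already level between libraries. The summed FPKM was 482314 to 684212 in the libraries numbered 1 to 3 (GcKO and MUT) and 883256 to 1226005 in those numbered 4 to 6 (AmcKO and WT). It thus followed the label numbers and not the floxed allele. By genotype, GcKO and MUT are also the groups with Dpagt1 altered in the oocyte, so the label numbers and that defect cannot be told apart. The sum of the oocyte marker transcripts was 24287 to 66390 FPKM over all libraries, and that of the granulosa and cumulus markers 12.5 to 31.6 FPKM. Of the latter, Foxl2, Amh and Amhr2 were at 0 in all 12, while Cyp19a1 was at 6.70 to 20.9 FPKM in every library. Inha was at 5.44, 1.13 and 5.44 FPKM in MUT and at 0 in WT. Gja1 and Hsd17b1 were likewise found in all MUT libraries and at 0 in WT. From the commonest ratio between low values, 1 fragment was worth 2.29 to 2.66 times as much FPKM in WT as in MUT replicate 2, while MUT libraries ranged from 1.00 to 1.21, GcKO libraries from 0.902 to 1.50 and AmcKO libraries from 1.21 to 1.50. Values of 0 in WT are therefore less sensitive than values of 0 elsewhere.

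The average of GcKO and AmcKO was compared with the average of WT and MUT to ask which transcripts differed with the floxed allele. Such an average can also pass when a single group differs from the rest. Differences are on the log2(FPKM + 1) scale, which understates the change of low transcripts, and a transcript was called at a limma adjusted p under 0.05. Of 11233 tested genes, 52 (0.463%) were called. Of these, 19 (0.169%) were higher and 33 (0.294%) lower in the floxed libraries, and 33 (0.294%) differed by more than 2-fold. The split depended on scaling: 46 of 80 calls were higher with all libraries scaled to the same sum, and 30 of 67 with quantile normalization. At an unadjusted p under 0.05, 1276 genes (11.4%) passed, and the median difference of all tested genes was 0.02. The median of the mean FPKM was 19.5 over the called genes and 3.35 over all tested genes, and 13 of the 52 had a mean under 5 FPKM.

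The sign of the difference was the same in all 4 possible comparisons of a floxed with another group for 42 of the 52. Read library by library, 59 tested genes (0.525%) had all 6 floxed values above or all 6 below the other 6 values, 29 of them (0.258%) higher and 30 (0.267%) lower. Of those, 23 (0.205%) were also called, 11 (0.0979%) higher and 12 (0.107%) lower. The other 36 had differences of 0.28 to 1.27 in absolute log2 and adjusted p-values from 0.0502 to 0.481. The number of calls depended on single libraries: without MUT replicate 1 it was 11 higher and 15 lower, and without MUT replicate 3 it was 10 higher and 20 lower.

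The called genes were not spread evenly over the genome. Chromosome 9, which carries Dpagt1, held 18 of them among its 626 tested genes (2.88%), 8 higher and 10 lower. All other chromosomes together held 34 among 10607 (0.321%), 11 higher and 23 lower. The next highest share was on chromosome X, with 5 of 414 genes (1.21%), and chromosomes 1, 10 and 19 held none. Within 10 Mb of Gdf9 on chromosome 11 and of Amhr2 on chromosome 15, the genes whose regulatory sequences drive the Cre alleles, 0 of 152 and 0 of 124 tested genes were called (18 and 11 passed an unadjusted limma p under 0.05). The paper does not give the position of the Gdf9 Cre in the genome, and neither Cre was in all floxed libraries. These counts therefore do not test the chromosome round the Cre alleles.

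**Figure D1:**
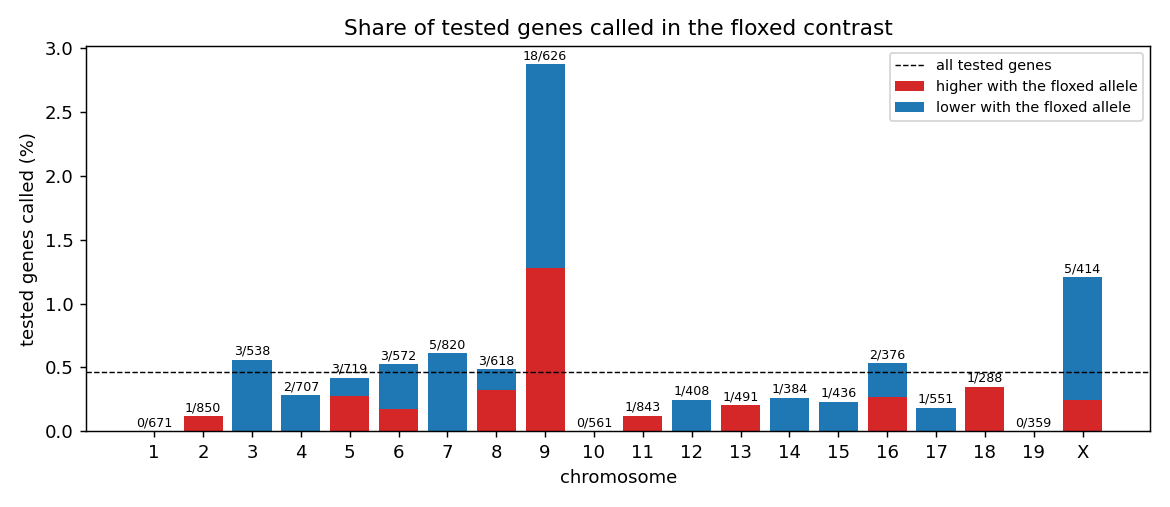
Share of tested genes called in the floxed contrast, in percent, for each chromosome. Bars are split into transcripts higher (red) and lower (blue) in the 6 floxed libraries, the numbers above them give called and tested genes, and the dashed line is the share over all tested genes, 0.463%. Chromosome 9 stands at 2.88%, with 18 of 626 genes.

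On chromosome 9 the calls lay round Dpagt1. From -6.47 Mb to 22.8 Mb relative to it, a stretch of 29.3 Mb (chr9:37854819-67163788 in the deposited table, mm10) held 17 of the 18 called genes, chosen here as the stretch from the first to the last call after their positions were seen. They were 17 of 187 tested genes (9.09%), 8 higher and 9 lower, with 3 before Dpagt1 and 14 after it. In the remaining 439 tested genes of the chromosome, 1 was called (0.228%), the glutamate receptor gene Grm2, 62.3 Mb away. Within 5, 10 and 20 Mb of Dpagt1, 4 of 46 (8.70%), 8 of 105 (7.62%) and 11 of 197 (5.58%) tested genes were called. Leaving out 1 library at a time left 10 to 16 calls in the stretch, with 11 without WT replicate 4, without WT replicate 6 or without MUT replicate 1, and 10 without MUT replicate 2. The 8 calls within 10 Mb became 4 without WT replicate 4, WT replicate 6, MUT replicate 1 or AmcKO replicate 4, 5 without MUT replicate 3 or GcKO replicate 2, and 3 without MUT replicate 2.

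**Figure D2:**
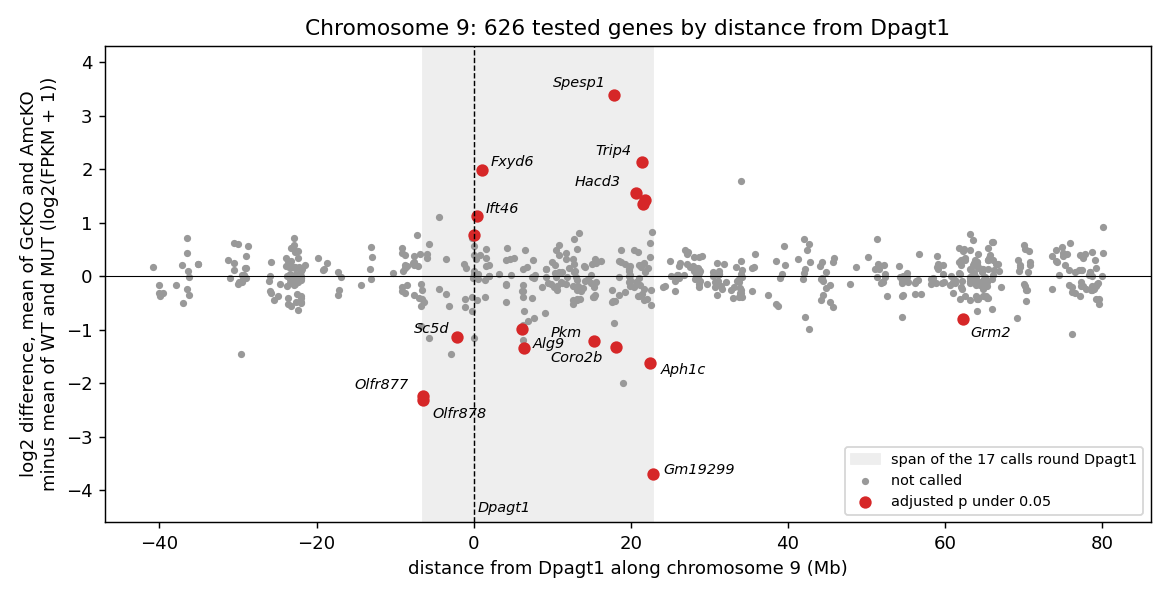
Difference between floxed and other libraries on the log2(FPKM + 1) scale for the 626 tested genes of chromosome 9, by distance from Dpagt1 in Mb. Red points were called at an adjusted p under 0.05, grey points were not, and the shaded stretch runs from the first to the last of the 17 calls round Dpagt1. Calls inside it lie on both sides of 0, with Spesp1 highest and Gm19299 lowest.

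The calls within that stretch came in groups, with long uncalled intervals between them. The limits of each group are called genes, set after their positions were seen, which raises the share called in it. No gene was called among the 64 tested between Alg9 and Pkm, over 8.79 Mb, and their median absolute difference was 0.21. The group with most calls ran from Hacd3 to Gm19299, where 6 of 26 tested genes (23.1%) over 2.18 Mb were called, 4 higher and 2 lower. Its uncalled genes differed by -0.54 to 0.82, with a median absolute difference of 0.30. Uncalled genes reached -1.15 between Sc5d and Fxyd6 and -1.19 between Tex12 and Alg9, with median absolute differences of 0.35 and 0.39. The median absolute difference was 0.20 over the rest of chromosome 9. Within 1 Mb of Dpagt1 itself, 2 of 19 tested genes were called, Trappc4 and Ift46, and the median difference of the 19 was 0.04. The nearest tested genes on either side of Dpagt1, Hinfp and H2afx, differed by -0.03 and 0.02.

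All 17 genes had the same sign in the 4 comparisons of a floxed with another group, against 25 of the 35 called genes outside the stretch. In 10 of the 17 the 6 floxed values did not overlap the other 6 values, and 10 of the 17 were called whichever library was left out. The libraries numbered 1 to 3 and those numbered 4 to 6 can be read apart, since GcKO is compared with MUT in the former and AmcKO with WT in the latter. Of the 17, 5 were called in GcKO against MUT, 8 in AmcKO against WT, 4 in both and 8 in neither.

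**Figure D3:**
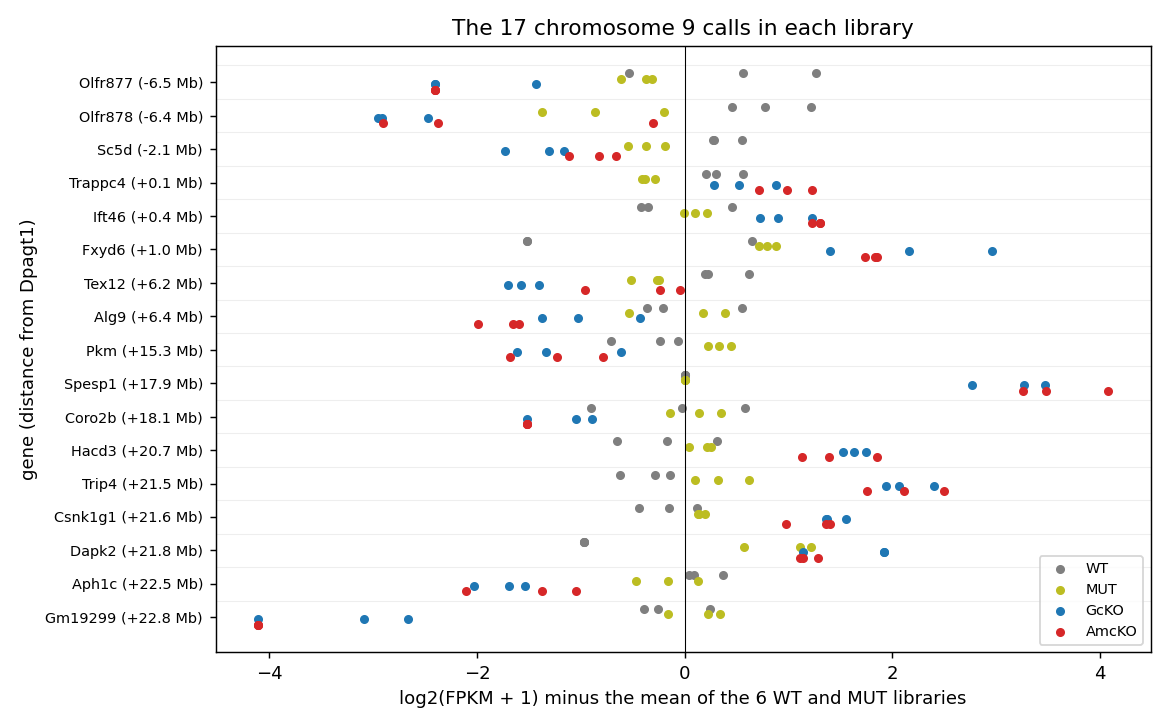
The 17 called genes of chromosome 9 round Dpagt1 in each of the 12 libraries, ordered by distance from Dpagt1. Each point is log2(FPKM + 1) of a library minus the mean of the 6 WT and MUT libraries for that gene, coloured by group. Spesp1, Trip4, Hacd3 and Csnk1g1 lie to the right in all 6 floxed libraries and Gm19299, Aph1c, Sc5d and Olfr877 to the left, while Tex12, Olfr878, Trappc4 and Dapk2 overlap with MUT or WT.

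Trip4 and Csnk1g1 lie head to head, on opposite strands, and both were higher in the floxed libraries. Trip4 encodes a transcriptional coactivator and Csnk1g1 a casein kinase 1 isoform. The starts of their RefSeq transcripts are 215 bases apart on GRCm38.p6, and the stretch between them (chr9:65908795-65909009, forward strand, Trip4 to the left and Csnk1g1 to the right) is shown because it is upstream of both. Capitals mark an ETS site, spelled CCGGAAGT, in either orientation and the GC box GGGCGG in either orientation.

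Trip4-Csnk1g1: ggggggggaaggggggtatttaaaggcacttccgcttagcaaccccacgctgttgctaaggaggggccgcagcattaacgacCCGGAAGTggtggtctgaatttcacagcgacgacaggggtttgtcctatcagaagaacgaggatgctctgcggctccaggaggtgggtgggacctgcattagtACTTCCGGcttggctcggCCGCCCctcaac

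The stretch held 2 matches to CCGGAAGT, which occurs in 2.88% of the 32851 RefSeq promoters in the 250 bases before the start, and 1 to GGGCGG, which occurs in 32.7% of them. Of the called genes with a promoter entry, 5 of 41 held CCGGAAGT, and 2 of 16 on chromosome 9 did, Trip4 and Csnk1g1, which share these bases. This is the reference sequence of C57BL/6J, and the sequence of the floxed chromosome was not read here.

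Trip4 FPKM was 2.88, 2.08 and 3.31 in WT and 4.93, 4.10 and 6.31 in MUT, against 24.0, 17.2 and 18.8 in GcKO and 15.0, 25.7 and 19.5 in AmcKO. The lowest floxed library was above the highest of the others. The difference was 2.13 (SE 0.18, adjusted p = 6.12e-05), 1.79 in GcKO against MUT and 2.47 in AmcKO against WT. Trip4 shares its locus with 2810417H13Rik on the opposite strand, which was at 0 to 2.04 FPKM in all 12 libraries.

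Csnk1g1 was at 1.13, 0.767 and 0.440 FPKM in WT and 1.25, 1.15 and 1.16 in MUT, and at 4.08, 4.76 and 4.03 in GcKO and 4.03, 2.85 and 4.18 in AmcKO. Again the floxed libraries lay wholly above the others. The difference of 1.34 (SE 0.20, adjusted p = 0.00732) passed in the average, while the separate comparisons gave 1.27 (adjusted p = 0.102) and 1.40 (adjusted p = 0.0558).

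In the same group, Hacd3, an enzyme of very long chain fatty acid elongation, was at 0.614 to 2.15 FPKM without the floxed allele and at 4.58 to 8.17 with it. The difference was 1.55 (adjusted p = 0.00531), 1.46 against MUT and 1.63 against WT. Dapk2, a calmodulin-dependent protein kinase, was listed at 0 in WT. MUT held 1.91 to 3.55 FPKM of it and the floxed libraries 3.23 to 6.38 FPKM. Its groups overlapped through MUT, and the difference of the averages was 1.42 (adjusted p = 0.00807). Aph1c, a subunit of the gamma-secretase protease, went the other way, from 6.21 to 11.9 FPKM without the floxed allele to 1.31 to 3.82 with it. Its difference of -1.63 had an adjusted p of 0.00364.

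A set of 5 genes (0.0445% of those tested) was called with the same sign in both separate comparisons: Spesp1, Trip4, Gm19299, Sc5d and Myo10. Alone, GcKO against MUT called 23 genes (0.205%) and AmcKO against WT 24 (0.214%). Of these 5 genes, 4 lie on chromosome 9 within the stretch and Myo10 lies on chromosome 15. Spesp1, Trip4, Gm19299, Sc5d and Myo10 stayed called in the average under each alternative in which they were tested and with each library left out, as did Ift46, Olfr877 and Aph1c. Spesp1 and Olfr877 were too low to be tested at a mean of at least 5 FPKM. The count for both comparisons fell to 3 without MUT replicate 1, MUT replicate 2, GcKO replicate 1 or GcKO replicate 3. The bases before the starts of 4 of them are given next, from RefSeq on GRCm38.p6, 200 bases each on the strand of the gene, with matches in either orientation to the GC box, the CCAAT box, the TATA box (spelled TATAAA) and the E-box (spelled CACGTG) in capitals (Trip4 is shown above).

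Spesp1: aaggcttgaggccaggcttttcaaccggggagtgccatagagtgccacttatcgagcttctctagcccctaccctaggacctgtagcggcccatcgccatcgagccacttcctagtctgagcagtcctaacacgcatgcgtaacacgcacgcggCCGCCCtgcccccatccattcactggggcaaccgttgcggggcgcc
Gm19299: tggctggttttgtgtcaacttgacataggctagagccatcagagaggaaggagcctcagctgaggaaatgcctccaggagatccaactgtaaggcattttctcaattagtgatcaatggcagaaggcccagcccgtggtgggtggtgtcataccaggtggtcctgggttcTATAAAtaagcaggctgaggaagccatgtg
Sc5d: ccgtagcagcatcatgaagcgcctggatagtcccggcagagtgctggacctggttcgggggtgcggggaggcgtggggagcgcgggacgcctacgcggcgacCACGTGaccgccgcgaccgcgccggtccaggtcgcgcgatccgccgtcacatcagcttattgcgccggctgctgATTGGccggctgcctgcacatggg
Myo10: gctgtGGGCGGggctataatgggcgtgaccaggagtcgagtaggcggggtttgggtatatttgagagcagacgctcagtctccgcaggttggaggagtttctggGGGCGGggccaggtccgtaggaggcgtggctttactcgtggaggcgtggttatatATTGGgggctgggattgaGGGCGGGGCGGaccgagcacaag

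These stretches are chr9:62282180-62282379 (reverse strand) for Spesp1, chr9:67133361-67133560 (forward) for Gm19299, chr9:42264301-42264500 (reverse) for Sc5d and chr15:25622350-25622549 (forward) for Myo10, the first of its 2 listed starts. They differ in make-up: the share of G and C was 62.0% for Spesp1 and Myo10, 51.0% for Gm19299 and 70.5% for Sc5d, against a median of 52.4% over all promoters. In the 200 bases shown, the TATA box was found before Gm19299, the E-box and the CCAAT box before Sc5d, and the GC box before Spesp1. Before Myo10 the GC box was found 4 times, with overlap of matches, along with a CCAAT box. In the 250 bases before the start, which were searched for the shares, Sc5d held a GC box too. Over the same length in all promoters the CCAAT box occurs in 33.8%, the TATA box in 12.4% and the E-box in 6.02%. 

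Spesp1, which encodes a protein of the sperm equatorial segment, was listed at 0 in all 6 libraries without the floxed allele. It was at 8.66, 10.1 and 5.83 FPKM in GcKO and at 10.2, 8.59 and 15.9 in AmcKO. Every floxed library thus held the transcript and none of the others did (adjusted p = 3.63e-06; 0.000353 in GcKO against MUT and 0.00014 in AmcKO against WT). The gene lies 17.9 Mb from Dpagt1 (chromosome 9, 62270729 to 62282208, reverse strand). Among 10 tested genes of sperm-egg interaction and egg activation it was the only one called, where 0.463% were called over all tested genes.

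Gm19299, a long intergenic non-coding RNA at 22.8 Mb from Dpagt1, went the other way. Its FPKM was 13.4, 12.1 and 19.5 in WT and 19.2, 14.4 and 20.9 in MUT, against 0, 1.03 and 1.72 in GcKO and 0 in all 3 AmcKO libraries. The difference was -3.70 (SE 0.25, adjusted p = 4.19e-06), and both separate comparisons passed, with -3.42 (adjusted p = 0.000588) in GcKO against MUT and an adjusted p of 0.00014 in AmcKO, listed at 0, against WT.

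Sc5d, the sterol C5-desaturase of cholesterol synthesis, lies at -2.06 Mb from Dpagt1. It was at 148, 122 and 123 FPKM in WT and 88.7, 68.7 and 77.8 in MUT, and at 29.8, 40.3 and 44.4 in GcKO and 56.5, 63.4 and 46.1 in AmcKO. WT was the highest group and the highest floxed library was below the lowest MUT library. The difference was -1.13 (SE 0.13, adjusted p = 0.00121), and -1.03 and -1.24 in the separate comparisons.

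Myo10, an unconventional myosin of filopodia, was at 9.16, 14.6 and 8.32 FPKM in WT and 10.5, 10.9 and 9.60 in MUT. In the floxed libraries it was at 0.980, 0.533 and 0.887 (GcKO) and 0.253, 1.55 and 1.63 (AmcKO). The groups were far apart, with a difference of -2.58 (SE 0.23, adjusted p = 9.32e-05), -2.66 against MUT and -2.49 against WT. Unlike the other 4 it is on chromosome 15 (25622525 to 25813673, forward strand), which also carries Amhr2 (102445367 to 102454633).

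**Figure D4:**
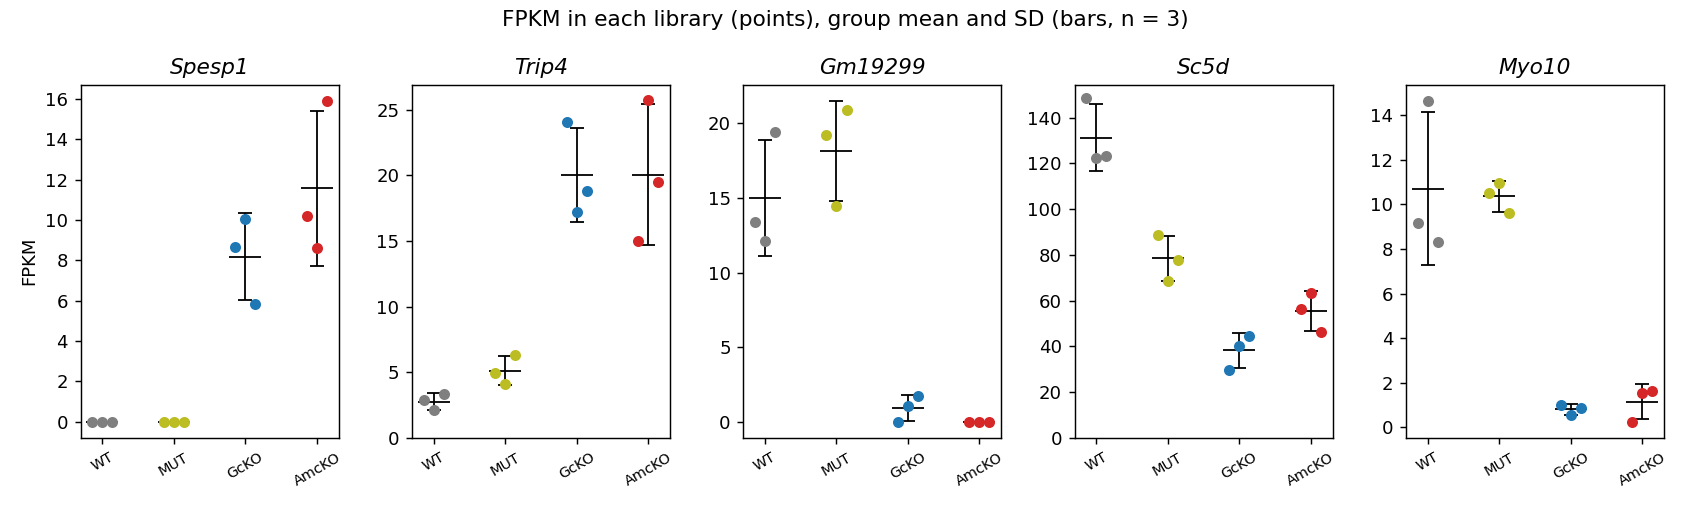
FPKM of the 5 genes called in both GcKO against MUT and AmcKO against WT, 1 panel a gene. Points are libraries, and bars are the group mean with the SD of 3 libraries. In each panel the 6 floxed libraries lie apart from the 6 others, above them for Spesp1 and Trip4 and below them for Gm19299, Sc5d and Myo10.

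Nearer to Dpagt1, 3 transcripts were higher. Ift46, a component of intraflagellar transport, was at 11.7 to 22.4 FPKM without the floxed allele and at 27.1 to 41.2 with it (difference 1.11, adjusted p = 0.00732). Fxyd6, a regulator of the sodium pump, was at 0 to 4.25 FPKM and at 6.56 to 21.3 (difference 1.99, adjusted p = 0.0217), a call that was lost in 10 of the 12 fits with a library left out. Trappc4, a subunit of a complex that tethers vesicles between the endoplasmic reticulum and the Golgi, was at 34.6 to 68.6 and at 56.3 to 110 FPKM (difference 0.77, adjusted p = 0.0175). Its groups overlapped through WT, and it overlaps Rps25 on the opposite strand, which differed by 0.39 (adjusted p = 0.246).

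A further 5 transcripts of the stretch were lower. The synaptonemal complex gene Tex12 differed by -0.99 (adjusted p = 0.00868), the glycolytic enzyme gene Pkm by -1.21 (0.0176) and the coronin gene Coro2b by -1.33 (0.0328), all by limma with their groups overlapping. Against MUT alone the call of Tex12 was lost, and AmcKO differed from MUT by -0.07 for it. With AmcKO alone the calls of Tex12, Pkm and Coro2b were lost. Among the 12 fits with 1 library omitted, the call was lost in 2 for Tex12, 9 for Pkm and 11 for Coro2b. The neighbouring odorant receptor genes Olfr877 and Olfr878 differed by -2.24 (adjusted p = 0.00364) and -2.32 (adjusted p = 0.00890). The call of Olfr878 was lost in 10 of those fits, against MUT alone and with AmcKO alone, and that of Olfr877 in none. They are paralogs, and reads could be split between them. Olfr877 was at 2.46 to 11.7 FPKM without the floxed allele, was found in 1 floxed library, GcKO replicate 1, at 0.966 FPKM, and was listed at 0 in the other 5.

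Among the genes of the pathway in which DPAGT1 works, 1 of 31 tested genes for dolichol-linked N-glycan synthesis and transfer was called, where 0.463% were called over all genes. That was Alg9, a mannosyltransferase of the endoplasmic reticulum, which lies 6.44 Mb from Dpagt1. Its FPKM was 4.47, 5.06 and 9.30 in WT, 3.82, 8.16 and 6.91 in MUT, 4.20, 1.72 and 2.45 in GcKO and 1.22, 0.770 and 1.32 in AmcKO. Only GcKO replicate 1 overlapped the other side, through MUT replicate 1, and it was below all WT libraries. The difference was -1.35 (SE 0.25, adjusted p = 0.0274), and the call was lost in 10 of the 12 fits with a library left out. It was also lost without the filter, with same-sum scaling, against MUT alone and with GcKO alone. Alg9 overlaps 1110032A03Rik on the opposite strand, which differed by -0.65 (limma adjusted p = 0.145). The median difference of the 31 genes was -0.05, against 0.02 over all tested genes.

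Outside chromosome 9, 34 genes were called, and 13 of them did not overlap between the groups. Myo10 was the only one of the 34 called in both separate comparisons. The rises without overlap were Ramp2, Wfdc1, Nfkbiz, Kdm1b and 1700021F07Rik. The falls were Myo10, Haus8, Xlr3c, Tuba3b, Cth, Rhd, AU016765 and Fam188b, which the annotation lists as Mindy4.

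Kdm1b, the histone demethylase needed for maternal imprints in growing oocytes, was at 13.1 to 15.3 FPKM in the 6 libraries without the floxed allele and at 18.5, 29.5 and 22.1 in AmcKO and 42.6, 23.2 and 26.2 in GcKO. The floxed libraries were higher and more spread (difference 0.85, adjusted p = 0.0389), and the call was lost in 11 of the 12 fits with a library left out. Nfkbiz, a nuclear regulator of NF-kappa-B target genes, was at 1.58 to 3.27 against 3.69 to 9.30 FPKM (difference 1.14, adjusted p = 0.0220), a call lost in 9 of those 12 fits. The gene 1700021F07Rik, of no function known here, was at 77.1 to 118 against 122 to 233 FPKM (difference 0.84, adjusted p = 0.0217), a call lost in 10 of them. Kdm1b overlaps Dek and Tpmt on the opposite strand, which differed by -0.29 (adjusted p = 0.532) and 0.03 (adjusted p = 0.939).

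Haus8 encodes a subunit of augmin, which nucleates microtubules inside spindles. It was at 13.3, 11.3 and 12.9 FPKM in WT and 9.23, 14.3 and 13.2 in MUT, and at 1.83, 4.28 and 2.85 in GcKO and 0, 1.35 and 4.62 in AmcKO. No library of one side reached the other (difference -2.14, SE 0.34, adjusted p = 0.00868). The call was lost in 7 of the 12 fits with a library left out. Tuba3b, an alpha-tubulin, was at 25.6 to 41.6 against 8.77 to 19.3 FPKM (difference -1.16, adjusted p = 0.00816).

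Cth, the cystathionine gamma-lyase of cysteine synthesis, was at 46.7, 55.1 and 58.0 FPKM in WT and 30.4, 26.5 and 29.9 in MUT, and at 20.0 to 24.1 in the 6 floxed libraries. The difference was -0.84 (adjusted p = 0.00531), but most of it was between AmcKO and WT, at -1.29, with -0.39 (adjusted p = 0.674) between GcKO and MUT. Rhd, the Rhesus blood group gene, showed the same order. It was at 19.8 to 27.8 FPKM in WT, while MUT held 12.9 to 15.0 FPKM and the floxed libraries 7.69 to 12.8 FPKM (difference -0.82, adjusted p = 0.0251). The non-coding AU016765 and Fam188b differed by -0.70 (adjusted p = 0.00989) and -0.69 (adjusted p = 0.0248). The calls of Rhd and Fam188b were each lost in 9 of the 12 fits with a library left out, and also with same-sum scaling. Against MUT alone the calls of Cth, Rhd, AU016765 and Fam188b were lost, and with AmcKO alone those of Rhd, AU016765 and Fam188b.

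On the X chromosome, the lymphocyte-regulated gene Xlr3c was at 128 to 179 FPKM without the floxed allele, at 31.1, 41.0 and 53.9 in GcKO and at 86.5, 79.1 and 90.6 in AmcKO. It was lower in both floxed groups and lowest in GcKO (difference -1.24, adjusted p = 0.000523). The separate comparisons gave -1.65 (adjusted p = 0.00163) against MUT and -0.83 (adjusted p = 0.0861) against WT, and the difference between them had an adjusted p of 0.322. Xlr3b, a close copy, differed by -0.68 (adjusted p = 0.02), a call lost in 8 of the 12 fits with a library left out. Its lowest values were in GcKO, at 80.6 to 125 FPKM. AmcKO, at 228 to 244 FPKM, was above MUT, at 199 to 226, and below WT, at 249 to 337. The call was also lost against MUT alone and with AmcKO alone. Reads of Xlr3b and Xlr3c could be split. Tceal8, of a family of transcription elongation factor-like genes, was at 0 to 18.1 FPKM without the floxed allele, 87.6 to 140 in GcKO and 81.0, 40.9 and 13.4 in AmcKO (difference 3.47, SE 0.59, adjusted p = 0.0145). The call was lost in 9 of the 12 fits with a library left out, with a pseudocount of 0.1 and with AmcKO alone, and AmcKO replicate 6 overlapped WT. It was the only call among 5 tested genes of the Bex and Tceal family, where 0.463% were called over all genes.

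The lowest calls rested on very few fragments. For 8 of the 52 called genes, all 12 values were whole multiples, within 0.1, of a single step once divided by what 1 fragment is worth in the library, and counted in that step no library reached above 30. In that count, where 1 step is 1 fragment or a fixed multiple of it, Wfdc1, a secreted whey acidic protein family member, had 2, 2 and 1 in GcKO, 1, 1 and 2 in AmcKO and 0 in all others, at 1.06 to 1.81 FPKM. A single step in WT would be worth 1.70 to 1.97 FPKM, so 0 there and 1 to 2 steps in the floxed libraries differ by little more than the smallest amount that could be seen. Its adjusted p was 0.00807, and counting error was not modelled. Ramp2, a partner of adrenomedullin receptors, had 14 steps in the floxed libraries and 1 in the others (adjusted p = 0.00779), and Olfr877 had 1 and 17. Ramp2 overlaps Vps25 on the same strand, which was at 91.1 to 273 FPKM in the floxed libraries and 129 to 287 in the others. Whether fragments listed for Ramp2 came from Vps25 was not tested.

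The same count was larger for the remaining genes. It gave 123 and 25 for Hacd3, 53 and 18 for Dapk2, 39 and 19 for Cog8, 38 and 93 for Alg9 and 5 and 41 for Coro2b, floxed libraries first. The 18 of Dapk2 and the 19 of Cog8 were all in MUT. Differences between the libraries in the worth of 1 fragment were not modelled in the fit.

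Some calls rested on a single group. The stress hormone gene Fgf21 was at 73.6, 49.3 and 77.2 FPKM in MUT, at 1.89 in GcKO replicate 1 and at 0 in the other 8 libraries, and so was called as lower with the floxed allele (adjusted p = 0.000215). The antisense transcript Gm20319 was at 4.97, 6.32 and 5.32 FPKM in WT and listed at 0 elsewhere. Gm7271 was low in MUT alone, with a mean of 1.36 FPKM against 8.80 in WT, 9.27 in GcKO and 11.2 in AmcKO. The difference between the separate comparisons was tested for all genes and called for 3 (0.0267%), Fgf21 (adjusted p = 0.00107), Gm20319 (0.0141) and the non-coding 4930405A21Rik (0.0284), which was at 45.6 to 64.5 FPKM in WT and 10.1 to 25.0 in the other 9 libraries. That test called 6 genes without WT replicate 4 and 5 without GcKO replicate 3 or AmcKO replicate 6.

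The homeobox gene Cphx2, a multicopy gene whose locus is shared with Cphx1 and others, had the largest fall in the contrast and the least even values. It was at 71.3 to 283 FPKM in WT and 59.8 to 122 in MUT. It was at 71.8 and 83.8 in GcKO replicates 1 and 2, 0.0739 in GcKO replicate 3 and 0.106 to 0.164 in AmcKO. The low values were thus in all AmcKO libraries and in 1 of 3 GcKO libraries (difference -4.62, SE 0.83, adjusted p = 0.0217). The call was lost in 9 of the 12 fits with a library left out and without the variance trend. The vomeronasal receptor genes Vmn1r157, Vmn1r112 and Vmn1r132 share 1 merged locus with many near-identical copies. They were highest in WT and lowest in GcKO, and differed by -1.33, -1.09 and -0.94, with adjusted p-values of 0.00613, 0.0109 and 0.0175. Against MUT alone the difference was 0.04 for Vmn1r112 and 0.07 for Vmn1r132.

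The remaining calls overlapped between the groups and were chosen for mention after their values were seen. Bhlhe41, a circadian transcriptional repressor, differed by 0.81 (adjusted p = 0.0103), but GcKO, at a mean of 16.3 FPKM, was below WT, at 26.3 FPKM, and the call was lost against WT alone and with GcKO alone. Among the higher ones were Enoph1, an enzyme of methionine salvage (difference 1.36, adjusted p = 0.0285), and Cog8, a subunit of a Golgi tethering complex, which was listed at 0 in WT (adjusted p = 0.0277). Cog8 was at 1.76 to 2.91 FPKM in MUT and 2.18 to 3.81 in the floxed libraries, so its call rested on the values of 0 in WT. Among the lower ones were the ephrin gene Efna1 (difference -1.25, adjusted p = 0.00807), the sodium and proton exchanger gene Slc9b1 (-1.17, adjusted p = 0.00807), the Src-family kinase gene Lyn (-0.83, adjusted p = 0.0175) and Sptssa, a small subunit of serine palmitoyltransferase (-0.75, adjusted p = 0.0297). With a library left out, the call was lost in 10 of the 12 fits for Enoph1, 9 for Sptssa, 5 for Cog8 and Lyn, 4 for Slc9b1 and 1 for Efna1. The calls of Enoph1, Cog8, Slc9b1, Lyn and Sptssa were also lost both against MUT alone and with AmcKO alone. That of Efna1 was lost with AmcKO alone. Between AmcKO and MUT, Slc9b1 differed by -0.14 and Lyn by -0.08.

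**Figure D5:**
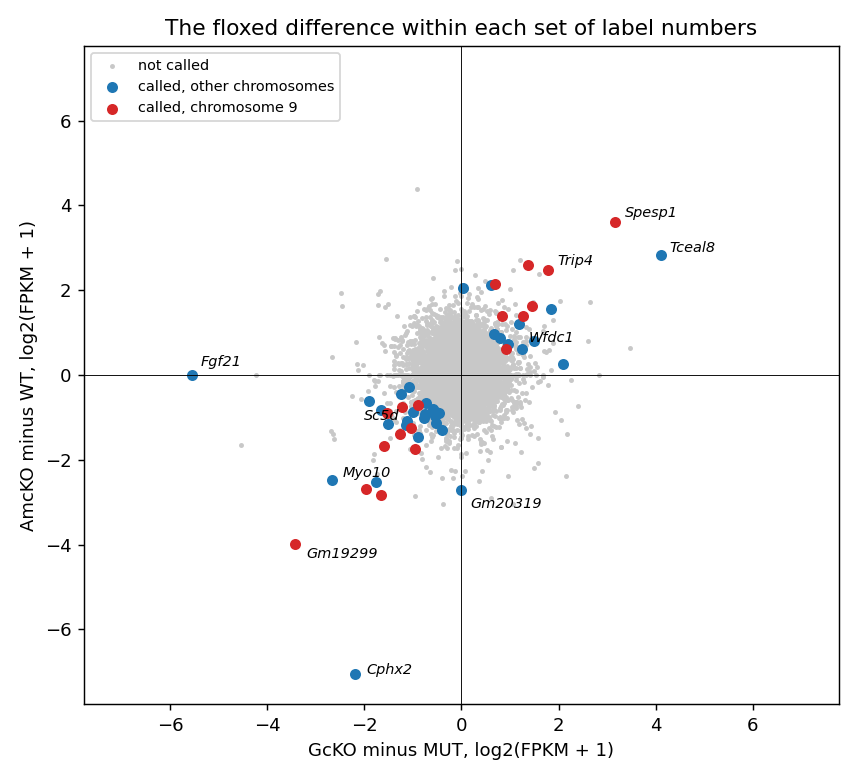
GcKO minus MUT (x axis) and AmcKO minus WT (y axis) on the log2(FPKM + 1) scale for the 11233 tested genes. Red and blue points are the genes called in the floxed contrast on chromosome 9 and elsewhere, and grey points were not called. Spesp1 and Gm19299 lie far from 0 on both axes, while Fgf21 and Gm20319 lie on 1 axis.

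The other way of pairing the groups sets GcKO against WT and AmcKO against MUT, across the label numbers. By genotype, Dpagt1 is altered in the oocytes of GcKO and MUT and not in those of AmcKO and WT. The label numbers and this defect cannot be told apart. GcKO against WT called 2264 genes (20.2%) and AmcKO against MUT 729 (6.49%), many more than the 23 and 24 within the label numbers. With the same sign in both, 13 genes (0.116%) were called, 7 higher and 6 lower. All 13 were among the 52, 8 of the 13 were on chromosome 9, and they included Spesp1, Trip4, Gm19299 and Myo10 but not Sc5d. The 13 were 8 without MUT replicate 1 or without MUT replicate 2.

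Lists of other functions showed few calls, each read against the 0.463% called over all genes. Of 23 tested targets of the stress factor ATF4, 1 was called, Fgf21, 9 had an unadjusted p under 0.05, all of them lower, against 11.4% of all tested genes, and the median of the 23 was -0.38, with medians of -0.74 in GcKO against MUT and 0.00 in AmcKO against WT. By limma none was called of 28 chaperone and degradation genes of the endoplasmic reticulum, 13 p53 targets, 10 interferon and nucleic acid sensing genes and 27 cohesin and kinetochore genes, where 5, 1, 1 and 3 had an unadjusted p under 0.05. None of 24 oocyte markers and of 7 granulosa and cumulus markers was called either (4 and 2 at an unadjusted p under 0.05). The oocyte growth factor gene Gdf9 was at 1631 to 3404 FPKM in the other libraries and 1652 to 3113 in the floxed ones. Its difference of -0.09 (adjusted p = 0.869) turned to 0.08 when libraries were scaled to the same sum and to 0.13 with quantile normalization. Of 3 tested theca, stroma, endothelial and blood cell markers none was called, and 1 had an unadjusted p under 0.05 (limma).

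Among larger families, none was called of 88 oxidative phosphorylation, 34 proteasome, 58 histone and 228 zinc finger genes (limma, 11, 5, 13 and 16 at an unadjusted p under 0.05), and 5 were called of 107 olfactory and vomeronasal receptor genes, all lower and named above. The histone median, -0.36, was further from 0 than those of the other families named here. Scaling all libraries to the same sum moved the median of all genes from 0.02 to 0.13, and these medians are to be read against that shift.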

How the data were processed

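Libraries of 20 GV oocytes were made with Smart-seq2 and sequenced as 150-nt reads. The authors aligned reads to mm10 with TopHat2 2.0.13 and deposited FPKM values per gene. Cufflinks 2.2.1, Cuffnorm and Cuffdiff are the other tools they list. The annotation and strand setting are not given in the sources used here, so overlapping genes on opposite strands cannot be told apart. Columns with the authors' own comparisons (fold changes and p-values) were not used. FPKM is not a count, and the absolute depth is unknown (the relative worth of 1 fragment was read from ratios of low values), so log2(FPKM + 1) was fitted with limma 3.58.1 (R 4.3.3, variance trend) over 12 libraries with the 4 groups as a factor. The contrast was the mean of GcKO and AmcKO minus the mean of WT and MUT, for genes with at least 1 FPKM in at least 1 library. P-values were adjusted by Benjamini-Hochberg over 11233 genes and called under 0.05. The steps were tested on simulated data.

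Genes named by rule were the 12 largest rises and 12 largest falls among calls whose 6 floxed values lay all above or all below the other 6, such calls within 10 Mb of Dpagt1, genes called with the same sign in both separate comparisons, the up to 4 largest calls of each list, and Dpagt1, Gdf9 and Amhr2. The result of 1 list is not reported here. Every other gene, the overlapping calls of chromosome 9 included, was chosen after its values were seen. The labels do not say whether replicates are separate animals. The comparison and lists were chosen with earlier results of these data known. Alternatives were the pseudocount, the filter, the scaling, the variance trend, the thresholds, the replicate block, single comparison groups and each library left out. Sequences and motif shares came from RefSeq promoters of GRCm38.p6, and figures were drawn with matplotlib 3.10.9.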

Additional observations from a re-analysis of the deposited data

Results flagged for a closer look

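The difference between the separate comparisons, GcKO minus MUT less AmcKO minus WT on the log2(FPKM + 1) scale, passed the limma interaction test for 3 genes. It was -5.54 for Fgf21 (adjusted p = 0.00107), which was high in MUT alone. It was 2.70 for Gm20319 (adjusted p = 0.0141), which was found in WT alone, and 2.53 for 4930405A21Rik (adjusted p = 0.0284), which was highest in WT.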

How the results depend on the processing

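The floxed contrast called 19 higher and 33 lower transcripts. A fold change over 2 left 19 lower. At an adjusted p under 0.01 there were 8 higher and 19 lower, 5 within 10 Mb of Dpagt1, 3 in both separate comparisons, 5 in both crossed ones and 1 interaction. Without a filter there were 5 interactions, and at a mean of at least 5 FPKM 12 higher and 9 non-overlapping higher. Quantile normalization gave 30 higher and 6 interactions, and same-sum scaling 46 higher and 28 in both crossed comparisons. A 5 Mb window held 4 calls. Against MUT alone 107 were higher, with 261 higher and 296 lower without overlap. Against WT alone there were 634 and 1013, 26 within 10 Mb, and 678 and 737 without overlap. GcKO alone gave 72 and 398, with 270 and 257 without overlap, and AmcKO alone 30 and 14, with 168 and 127. Leaving out each library gave 10 to 20 higher, 15 to 43 lower, 3 to 8 within 10 Mb, 3 to 5 in both separate comparisons, 8 to 17 in both crossed ones, 2 to 6 interactions, and 37 to 53 higher and 35 to 51 lower without overlap. With a replicate block there were 6 higher and 19 lower. Deviations of same-numbered libraries correlated at -0.041 to 0.041, so the numbers did not pair the libraries. The sign turned for Fgf21 against WT alone (0.26), Vmn1r112 (0.0411), Vmn1r132 (0.0714) and 4930405A21Rik (0.38) against MUT alone, and Vmn1r112 (0.0634) and Vmn1r132 (0.14) with AmcKO alone. For Gdf9, never called, it turned with quantile normalization (0.13), same-sum scaling (0.0839), against MUT alone (0.24), without MUT replicate 2 (0.0474) and without GcKO replicate 1 (0.0279), and leaving out each library gave -0.164 to 0.0474. The cause was not tested. FPKM values carry no depth, and a 0 in WT is the least sensitive.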
